A study of Mus musculus with 12 samples.

Results

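The Toll-like receptors of the mouse macrophage were followed here as a family of 10 genes: Tlr1, Tlr2, Tlr3, Tlr4, Tlr5, Tlr6, Tlr7, Tlr8, Tlr9 and Tlr13. They were taken by gene symbol from a table of raw counts, 10 of 34948 rows that carry a symbol, and all 10 passed the filter on low counts that left 16546 genes for testing. RNA came from peritoneal macrophages of 8-week-old male mice, collected 3 days after intraperitoneal 3% Brewer thioglycolate, an irritant that draws leukocytes into the peritoneum. The 12 libraries form 4 groups of 3. Animals labelled Ern1fl/fl (WT below) carry floxed alleles of Ern1, which encodes the stress sensor IRE1α of the endoplasmic reticulum, and animals labelled Mac-Ern1KO (KO below) are its knockout, whose Cre driver is not named. The R300 groups had spent 2 h with platelets opsonized with R300, which is an antibody against CD42, a platelet glycoprotein complex. The blank groups carry the treatment label Con, and the labels do not say whether they received platelets without antibody or none. The study's title places the comparison in immune thrombocytopenia, a disease in which macrophages engulf antibody-coated platelets.

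Toll-like receptors recognise conserved microbial molecules and signal through the adaptors MyD88 and TRIF to NF-kappaB, MAP kinases and interferon regulatory factors. Tlr1, Tlr2, Tlr4, Tlr5 and Tlr6 act mainly at the cell surface on lipids and proteins of the microbial envelope. Tlr3, Tlr7, Tlr8, Tlr9 and Tlr13 sit in endosomes and lysosomes, where they read nucleic acids released from engulfed cargo, and they need the chaperone UNC93B1 and lysosomal proteases to function. Macrophages express most of the family.

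Several features of the libraries bear on the values below. Totals ran from 21765586 to 44273655 counts per library. Although every animal is labelled male, Xist, the transcript of the inactive X chromosome, was at 143 to 590 CPM (counts scaled to TMM-adjusted library size) in 8 libraries, and these also had lower sums of 4 Y-linked transcripts (42.6 to 162 CPM). In the other 4 libraries (in WT blank 3 and R300 2, in KO blank 3 and R300 3) Xist was at most 0.0742 CPM and the Y-linked sum was 205 to 224 CPM. Each group therefore holds 1 library without Xist and 2 with it. The level was not balanced by genotype: among libraries with Xist it was 143 to 431 CPM in WT and 464 to 590 CPM in KO. WT R300 1 and 3, and KO R300 1 and 2, were more alike than other libraries of a group (median chi-square per gene 1.37 and 1.53, against 6.15 to 10.3 for the other within-group pairs). WT blank 2 and KO blank 2 had the highest sums of B cell markers, 319 and 293 CPM, against 88.8 to 151 CPM elsewhere. The 9 macrophage markers were all detected, with summed levels of 17537 to 19579 CPM in WT libraries and 11155 to 15196 CPM in KO libraries. Ern1, the targeted gene, was at 94.1 to 117 CPM in WT and 116 to 155 CPM in KO among blank libraries, and at 138 to 205 and 174 to 235 CPM with R300. Its transcript was not lower in libraries labelled KO, so the genotype rests on the labels. In bulk RNA, fewer cells of a type and less RNA per cell cannot be told apart.

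Scaled by exon length, the family spanned 3 orders of magnitude in blank cells. Tlr2, which pairs with Tlr1 or Tlr6 to bind bacterial lipoproteins, stood at 225 CPM per kb as the mean of 6 blank libraries. Tlr13, a receptor for bacterial ribosomal RNA found in mice but lost in humans, came next at 71.0 CPM per kb. No blank library overlapped between Tlr2 and Tlr13, or between Tlr13 and Tlr7 (27.6 CPM per kb), a receptor for single-stranded RNA. Tlr8, encoded beside Tlr7, followed at 18.7 CPM per kb and Tlr1 at 17.7. The ranges of Tlr7, Tlr8 and Tlr1 overlapped, so their order is not separated by the spread between libraries. Tlr4, the lipopolysaccharide receptor, at 10.8 CPM per kb overlapped both Tlr1 above it and Tlr6 at 9.27 below it. Tlr9, which binds unmethylated CpG DNA, was lower at 3.43 CPM per kb. Tlr3, which binds double-stranded RNA, reached 0.877 CPM per kb. Tlr5, the flagellin receptor, was the lowest of the 10 at 0.112 CPM per kb, below every blank value of Tlr3. In the 6 R300 libraries Tlr5 stood at 1.15 CPM per kb on average, and its range (0.347 to 1.54) overlapped those of Tlr3 (0.477 to 1.23) and Tlr9 (1.24 to 3.06).

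**Figure D1:**
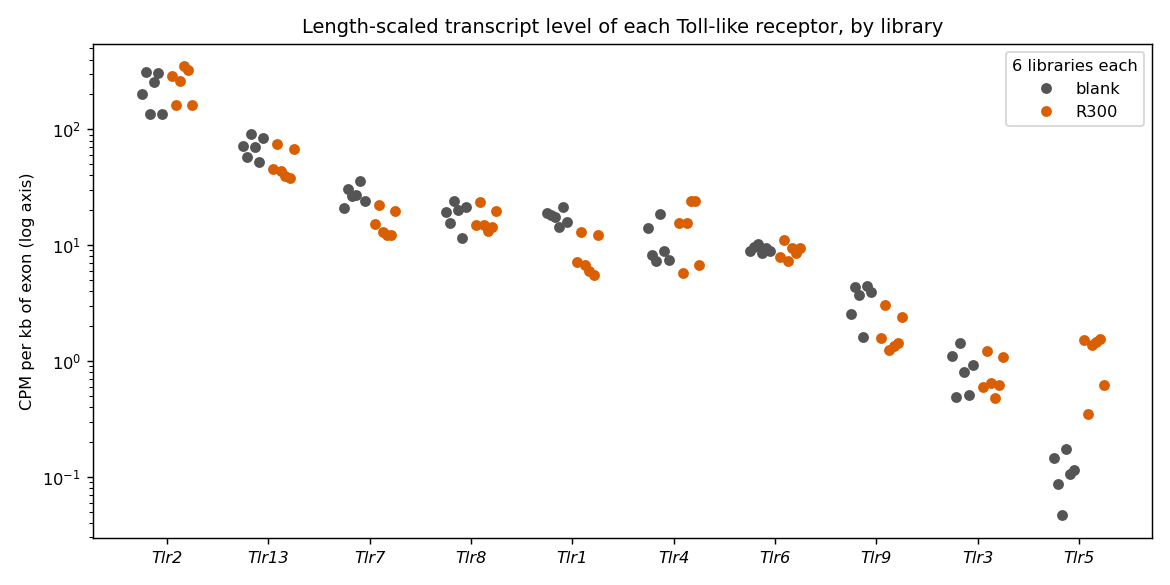
Transcript level of each receptor in CPM per kb of exon (log axis), 1 point per library, ordered by the mean of the 6 blank libraries. Tlr2 lies at the top at 225 CPM per kb in blank cells and Tlr5 at the bottom at 0.112, and the 6 R300 points of Tlr5 lie above its 6 blank points.

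The question the treatment comparison addresses is which transcripts differ between cells that met opsonized platelets and blank cells. Over both genotypes, 603 of 16546 genes (3.64%) passed edgeR's quasi-likelihood test at a Benjamini-Hochberg adjusted p under 0.05, 402 of them higher with R300 (2.43%) and 201 lower (1.21%). Among the 10 receptors, 3 passed: Tlr5 was higher, and Tlr1 and Tlr7 were lower. The median log2 difference of the 10 receptors was -0.16, beside -0.0032 for all genes tested, and 7 of the 10 were negative. Tested within WT, 103 genes passed (0.623%), and within KO 138 passed (0.834%). Tlr5 was the single receptor that passed in each. A description without a test asks for all 6 R300 libraries to lie on 1 side of all 6 blank libraries, which 664 genes did (4.01%). Tlr5 and Tlr1 were the 2 receptors that did. Nothing in the labels says that libraries of a group came from separate animals or cultures, so the p-values measure the spread between these libraries, which may be technical.

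**Figure D2:**
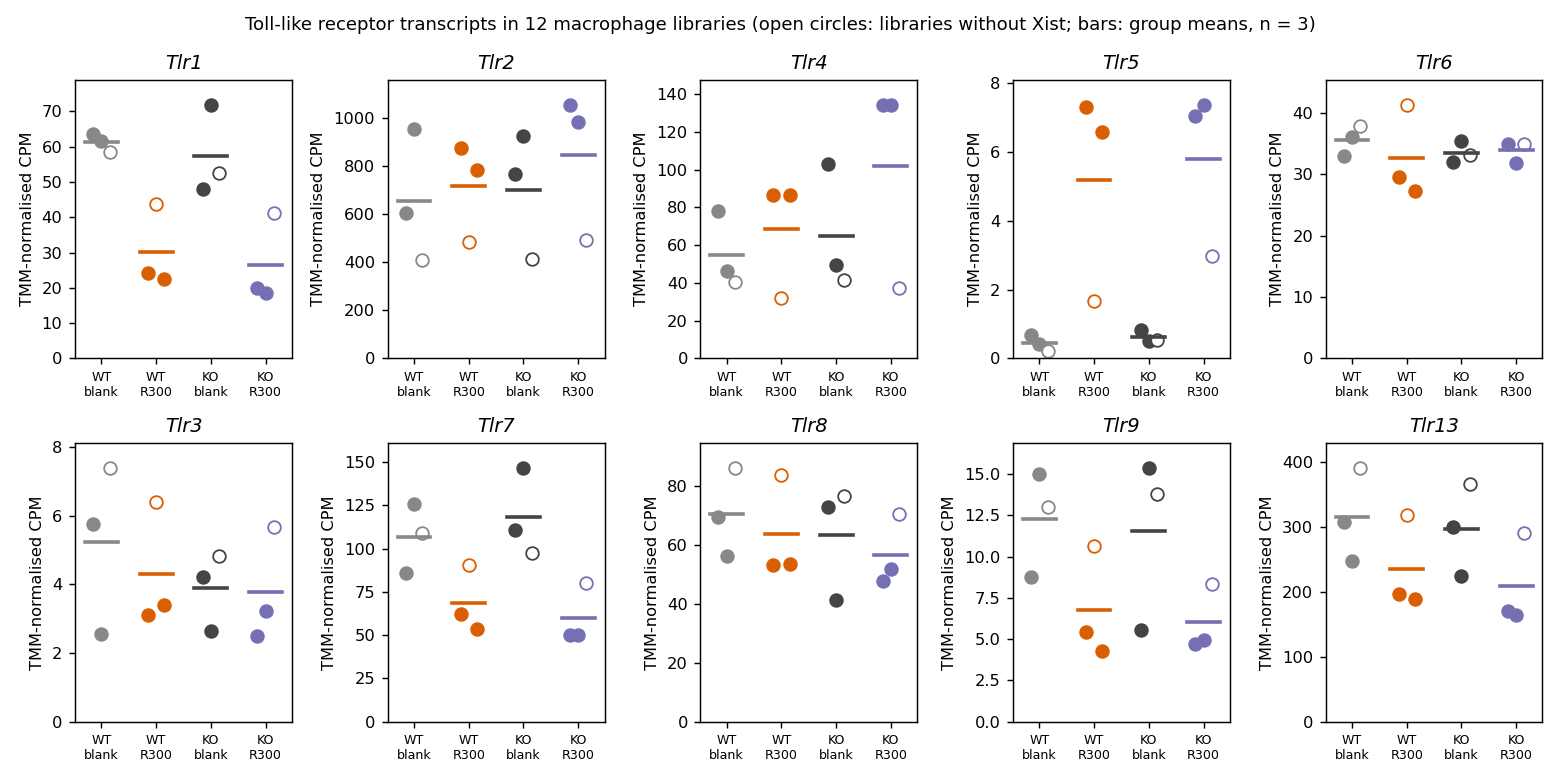
TMM-normalised CPM of each receptor in every library, by group, with cell-surface receptors in the upper row and endosomal receptors in the lower row. Bars are group means (n = 3) and open circles mark the 4 libraries without Xist. Tlr5 was above every blank value in all 6 R300 libraries and Tlr1 was below every blank value.

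Tlr5 lies on chromosome 1 (GRCm38 chr1:182954788-182976044, plus strand, protein coding) and was barely present in blank cells. Its levels were 0.692, 0.417 and 0.222 CPM in the WT blank libraries, which are 16, 16 and 6 counts, and 0.837, 0.508 and 0.546 CPM in the KO blank libraries, which are 28, 22 and 20 counts. With R300 it was at 7.31, 1.66 and 6.57 CPM in WT (259, 48 and 217 counts) and at 7.04, 7.36 and 2.99 CPM in KO (204, 208 and 94 counts). All R300 libraries were above all blank libraries, and the lowest R300 value of each genotype came from its library without Xist. The difference over both genotypes was 3.38 ± 0.43 on the log2 scale (SE of the fit), or 10.4-fold, with an adjusted p of 0.00155 from edgeR and a 95% interval of 2.43 to 4.33. Within WT the log2 difference was 3.56 ± 0.62 (edgeR adjusted p = 0.0334) and within KO it was 3.20 ± 0.59 (edgeR adjusted p = 0.0357). The pooled call held in each of 23 alternative analyses, and the highest adjusted p with any 1 library left out was 0.00729. The calls within a genotype were less secure. Leaving out any WT blank library, either WT R300 1 or 3, KO blank 3, or either KO R300 1 or 2 ended the WT call (edgeR adjusted p 0.0509 to 0.144). Leaving out WT blank 2, either WT R300 1 or 3, any KO blank library, or either KO R300 1 or 2 ended the KO call (edgeR adjusted p 0.0572 to 0.152). Among markers of other cells, 9 of 9 tested eosinophil and mast cell markers had positive differences and 3 of them passed. Their summed level ran from 17.9 to 66.03 CPM in blank libraries and from 44.7 to 93.9 CPM in R300 libraries. Mesothelial and fibroblast markers were positive in 10 of 10, none called, at 153 to 685 CPM in blank and 203 to 1452 CPM in R300 libraries. Their part in the Tlr5 difference was not tested.

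The 250 bases before the RefSeq start of Tlr5 (GRCm38.p6, plus strand, chr1:182954538-182954787) are shown because this gene had the largest difference of the 10. Capitals mark the match to a shortened NF-kappaB pattern, GGNNNTTCC, searched on both strands.
Tlr5: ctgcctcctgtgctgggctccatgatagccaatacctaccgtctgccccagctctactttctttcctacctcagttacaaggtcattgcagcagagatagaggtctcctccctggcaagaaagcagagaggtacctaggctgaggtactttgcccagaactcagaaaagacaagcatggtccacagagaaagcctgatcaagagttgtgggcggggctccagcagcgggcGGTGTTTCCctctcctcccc

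Tlr1 lies on chromosome 5 (chr5:64924679-64933563, minus strand, protein coding), 18.467 kb from Tlr6, and its product pairs with Tlr2 to bind triacylated lipopeptides. It was at 63.7, 61.5 and 58.4 CPM in WT blank and at 24.1, 43.7 and 22.6 CPM in WT R300. KO blank libraries had 48.1, 71.8 and 52.6 CPM and KO R300 libraries had 19.9, 18.4 and 41.3 CPM. Every R300 value was below every blank value, and the 2 highest R300 values, 43.7 and 41.3 CPM, were those of the libraries without Xist. The log2 difference was -1.07 ± 0.23, or 0.477-fold, with an edgeR adjusted p of 0.0282. Within WT it was -1.02 ± 0.33 (edgeR adjusted p = 0.315) and within KO it was -1.11 ± 0.33 (edgeR adjusted p = 0.212), neither of which passed. Removal of any WT blank library, either WT R300 1 or 3, KO blank 2, or either KO R300 1 or 2 ended the pooled call (edgeR adjusted p 0.0512 to 0.0881). It also ended when the near-alike R300 libraries were summed (0.191) and when WT blank 2 and KO blank 2 were both left out (0.0996). Without the filter on low counts, Tlr1 did not pass either. Of 50-base stretches in Tlr1 transcripts, 13.6% also occur in Tlr6, and how the authors' counting treated reads from such stretches is not given in the sources used here.

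The 250 bases before the distal RefSeq start of Tlr1 (GRCm38.p6, minus strand, chr5:64933559-64933808) are shown as the counterpart that was lower with R300. Capitals mark the match to GAGGAA, a core bound by PU.1, the factor that defines the myeloid lineage.
Tlr1: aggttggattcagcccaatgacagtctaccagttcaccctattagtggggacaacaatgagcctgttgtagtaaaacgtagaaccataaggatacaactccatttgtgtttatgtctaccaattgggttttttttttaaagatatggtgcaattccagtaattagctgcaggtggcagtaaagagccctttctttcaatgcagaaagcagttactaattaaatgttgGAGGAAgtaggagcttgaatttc

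Tlr6 and Tlr2, the other receptors of lipopeptides, did not pass. Tlr6, which pairs with Tlr2 to bind diacylated lipopeptides, was the steadiest of the 10, at 33.0, 36.0 and 37.8 CPM in WT blank, 29.5, 41.3 and 27.2 in WT R300, 32.0, 35.5 and 33.1 in KO blank, and 34.9, 31.8 and 34.9 in KO R300. The groups overlapped throughout, and its log2 difference was -0.06 ± 0.10 (edgeR adjusted p = 0.857), with a 95% interval of -0.27 to 0.16. The ratio of Tlr1 to Tlr6 per kb was 1.67 to 2.26 in the 6 blank libraries (median 1.83) and 0.636 to 1.32 in the 6 R300 libraries (median 0.917), 2 ranges that did not overlap. Tlr2 was at 603, 951 and 410 CPM in WT blank and 876, 485 and 784 in WT R300. It was at 767, 922 and 411 CPM in KO blank and 1052, 983 and 493 in KO R300. Its treated and blank ranges overlapped (log2 0.20 ± 0.28, edgeR adjusted p = 0.805).

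Tlr4 was at 77.8, 46.1 and 40.6 CPM in WT blank and 86.7, 32.2 and 86.8 in WT R300, and at 103, 49.7 and 41.5 CPM in KO blank and 134, 134 and 37.3 in KO R300. R300 groups held both the highest and the lowest of the 12 values, and the difference did not pass (log2 0.49 ± 0.38, edgeR adjusted p = 0.593). For Tlr2 and Tlr4 the split by Xist was wider than the split by treatment: Tlr2 averaged 867 CPM in the 8 libraries with Xist and 450 CPM in the 4 without, and Tlr4 averaged 89.7 and 37.9 CPM. This was not particular to them. The split by Xist was also the wider for Tlr3, Tlr6, Tlr8 and Tlr13, which were higher without Xist. Tlr8 averaged 55.8 CPM with Xist and 79.3 CPM without, and Tlr13 averaged 225 and 341 CPM. The 4 libraries without Xist also had the lowest summed levels of 9 markers of resident peritoneal macrophages (7962 to 10831 CPM, against 14451 to 29154 CPM). Whether that composition sets the Tlr2 and Tlr4 levels was not tested.

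Of the endosomal receptors, Tlr7 passed over both genotypes. It lies on the X chromosome (chrX:167304929-167330558, minus strand, protein coding). Its levels were 85.8, 126 and 109 CPM in WT blank, 62.3, 90.4 and 53.4 in WT R300, 111, 146 and 97.3 in KO blank, and 50.04, 49.997 and 80.0 in KO R300. The KO groups did not overlap, and the WT groups overlapped by 1 library, since WT R300 2, without Xist, was above WT blank 1. The log2 difference was -0.81 ± 0.18, or 0.571-fold, with an edgeR adjusted p of 0.0318. Within WT it was -0.64 ± 0.25 (edgeR adjusted p = 0.482) and within KO it was -0.98 ± 0.25 (edgeR adjusted p = 0.142), so neither passed alone. The pooled call ended with removal of any 1 library among WT blank 2 and 3, WT R300 1 and 3, KO blank 1 and 2, and KO R300 1 and 2 (edgeR adjusted p 0.0569 to 0.0966), with the near-alike libraries summed (0.220), and without WT blank 2 and KO blank 2 together (0.117). Without the filter on low counts, Tlr7 did not pass either.

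Tlr8 lies 40.599 kb from Tlr7 (chrX:167242696-167264329, minus strand) and reads degradation products of RNA in humans. It measured 69.5, 56.2 and 86.0 CPM in WT blank, 53.3, 83.9 and 53.6 in WT R300, 72.8, 41.4 and 76.5 in KO blank, and 47.7, 52.0 and 70.6 in KO R300. The groups overlapped and the difference did not pass (log2 -0.16 ± 0.19, edgeR adjusted p = 0.768). Per kb, Tlr7 exceeded Tlr8 in all 6 blank libraries, by 1.08 to 3.11 times (median 1.23), and the ratio was 0.845 to 1.03 in the 6 R300 libraries (median 0.934). The top of the blank range came from WT blank 2 and KO blank 2, the libraries high in B cell markers. These had the highest Tlr7 and the lowest Tlr8 of the blank libraries.

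Tlr9 and Tlr13 were lower on average with R300 but did not pass. Tlr9 was at 8.78, 15.02 and 13.0 CPM in WT blank, 5.44, 10.6 and 4.30 in WT R300, 5.56, 15.3 and 13.8 in KO blank, and 4.72, 4.96 and 8.36 in KO R300. KO blank 1 and WT blank 1 were low enough to overlap the treated groups (log2 -0.90 ± 0.31, edgeR adjusted p = 0.161). DESeq2 called it, at an adjusted p of 0.0488. Tlr13, also X-linked (chrX:106143204-106160493, plus strand), was at 307, 247 and 390 CPM in WT blank and 196, 318 and 188 in WT R300, and at 300, 224 and 366 CPM in KO blank and 171, 165 and 291 in KO R300. Its highest value within each group came from the library without Xist, and the groups overlapped (log2 -0.47 ± 0.20, edgeR adjusted p = 0.301).

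Tlr3 was low throughout, at 5.75, 2.55 and 7.38 CPM in WT blank, 3.10, 6.40 and 3.39 in WT R300, 4.22, 2.66 and 4.83 in KO blank, and 2.48, 3.22 and 5.66 in KO R300. The groups overlapped (log2 -0.16 ± 0.32, edgeR adjusted p = 0.875), and the library without Xist was the highest of its group in all 4 groups. Gm45542 overlaps 7.32% of Tlr3 exon bases on the opposite strand, and without strand its reads cannot be told apart from those of Tlr3. No other receptor of the 10 has exon bases overlapped by exons of another annotated gene.

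Because B cells also express Tlr1, Tlr7 and Tlr9, the B cell marker list was set beside them. All 10 B cell markers were detected and had negative log2 differences with R300 (median -0.93), none of them called. Their summed level was 90.2 to 319 CPM in WT blank, 88.8 to 106 in WT R300, 150 to 293 in KO blank and 114 to 139 in KO R300. The 7 markers of recruited monocytes also all had negative log2 differences with R300, 1 of them called. The part of B cells and recruited monocytes in the lower Tlr1, Tlr7 and Tlr9 was not tested.

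**Figure D3:**
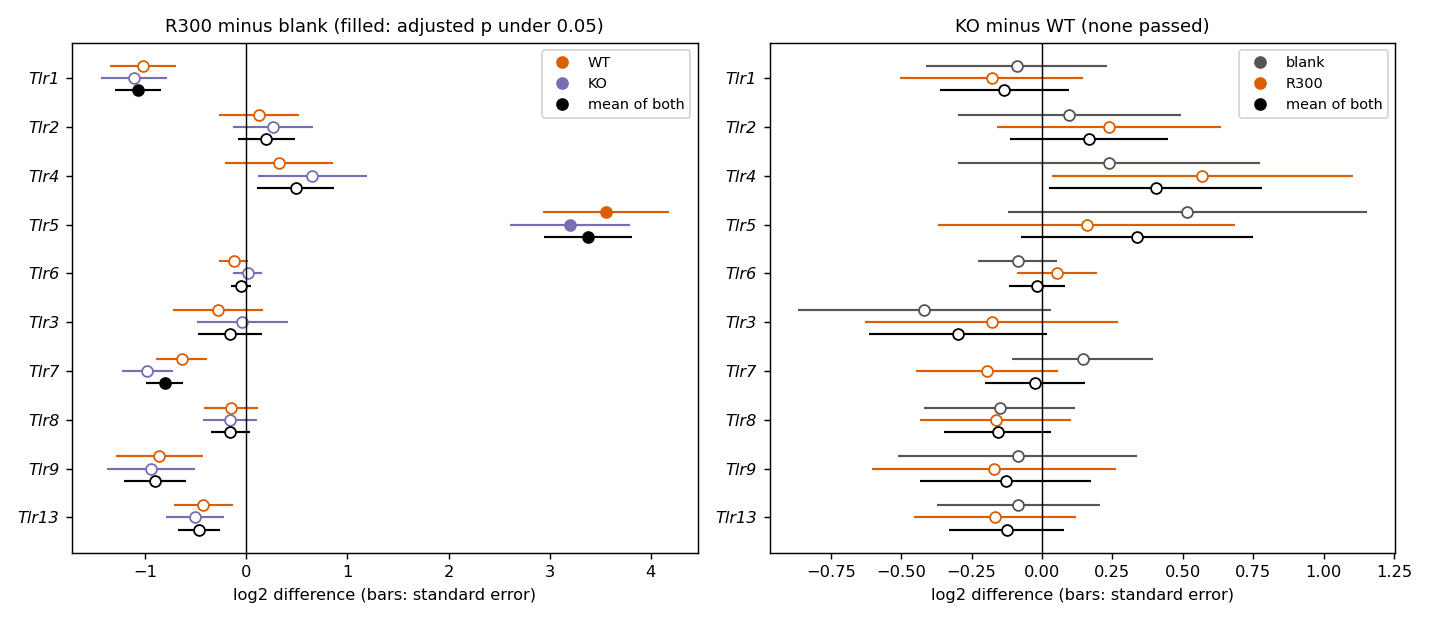
Log2 differences of each receptor with the SE of the fit, R300 minus blank on the left and KO minus WT on the right. Filled points passed at an adjusted p under 0.05: Tlr5 in WT, in KO and over both, and Tlr1 and Tlr7 over both.

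R300 and blank could also be set side by side within 4 sets of libraries alike in Xist, with no test. In each genotype, 1 R300 library without Xist was set against 1 blank library without it, and the mean of 2 R300 libraries with Xist against blank 1. WT blank 2 and KO blank 2, which stand apart in B cell markers, were left out of these sets, a choice made after seeing the data. Tlr5 was higher with R300 in 4 of 4 sets, by 7.47 times in WT and 5.47 times in KO without Xist, and by 10.0 and 8.60 times with Xist. Tlr1 was lower in 4 of 4, at 0.747 and 0.786 of the blank level without Xist and at 0.366 and 0.399 with Xist. Tlr7 was lower in 4 of 4, at 0.828 and 0.822 without Xist and at 0.674 and 0.451 with it. Both Tlr1 ratios without Xist lay closer to 1 than both with it, a contrast that was not tested. Tlr13 (0.559 to 0.817), Tlr9 (0.555 to 0.870) and Tlr8 (0.684 to 0.976) were also below 1 in all 4 sets, and Tlr2 was above 1 in all 4 (1.19 to 1.38). Tlr3, Tlr4 and Tlr6 went both ways. The share of all genes on 1 side in all 4 sets was not computed, so these counts are not read as particular to the receptors. With the mean of blank 1 and blank 2 in place of blank 1, the Tlr9 ratio in KO with Xist was 0.463 in place of 0.870, the single ratio that moved by over 1.5 times. Tlr5 was then 12.5 times higher in WT and 10.7 times higher in KO with Xist, and Tlr1 was at 0.373 and 0.320. The KO ratio of Tlr6 crossed 1 (0.988 in place of 1.04), and no other ratio did.

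**Figure D4:**
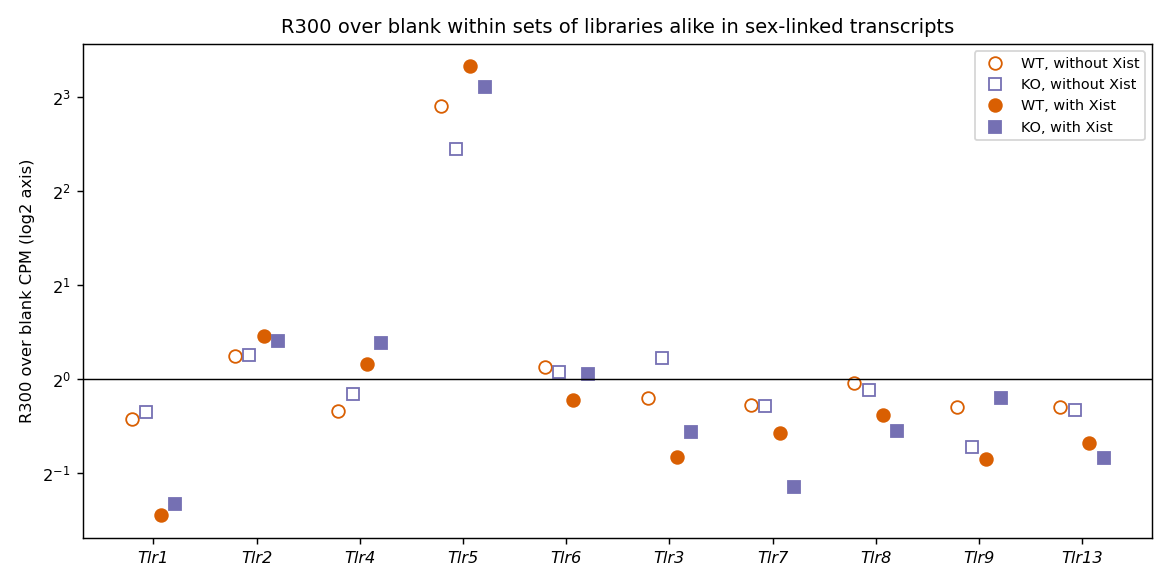
Ratio of R300 to blank CPM (log2 axis) of each receptor within 4 sets of libraries, split by genotype and by presence of Xist. Sets without Xist compare 1 library with 1, and sets with Xist compare the mean of 2 R300 libraries with blank 1, leaving out WT blank 2 and KO blank 2. Tlr5 lies between 5.47 and 10.0 and Tlr1 between 0.366 and 0.786.

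When the edgeR model carried an added term for absence of Xist, 1492 genes passed over both genotypes (9.02%), and 5 of the 10 receptors did: Tlr5, Tlr1, Tlr7, Tlr9 and Tlr13. With that term, and with WT blank 2 and KO blank 2 left out, 2539 of 16781 genes passed (15.1%), and so did 7 receptors. In that fit the 5 receptors just named were joined by Tlr2, higher at a log2 difference of 0.36 (edgeR adjusted p = 0.00981), and Tlr8, lower at -0.30 (edgeR adjusted p = 0.0356). The omission of the 2 blank libraries was chosen after seeing the data.

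The genotype comparison asks whether loss of Ern1 changes these transcripts in blank cells or after the opsonized platelets. No receptor passed between KO and WT. In blank cells 0 genes passed with edgeR (0%; 181 had an unadjusted p under 0.05, and DESeq2 called 4), and the receptors ran from -0.42 (Tlr3) to 0.52 (Tlr5) on the log2 scale. In R300 cells 0 genes passed with edgeR (0%; 324 at an unadjusted p under 0.05, 14 by DESeq2), and the receptors ran from -0.19 (Tlr7) to 0.57 (Tlr4). Averaged over both treatments, 1 gene passed (0.00604%), which was no receptor. The 95% interval of that average was narrowest for Tlr6, from -0.24 to 0.20 on the log2 scale, and among the widest for Tlr5, from -0.57 to 1.25. Larger genotype differences than these bounds lie outside each receptor's own interval, and smaller ones were not resolved. All 10 signs of these averages reversed when the estimated share of XX cells was a covariate. Among libraries with Xist that share was 24.9% to 67.8% in WT and 66.9% to 80.3% in KO, so it partly follows genotype. None of the 10 receptors had an unadjusted p under 0.05 in any comparison of KO with WT, and DESeq2 called none.

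The test of the difference between the responses, KO minus WT, called 0 genes (0%; 95 at an unadjusted p under 0.05, 0 by DESeq2). For Tlr5 it was -0.36 ± 0.83, for Tlr7 -0.34 ± 0.36 and for Tlr1 -0.09 ± 0.46 on the log2 scale, each with an edgeR adjusted p of 1.00. Side by side, Tlr5 differed by 11.8-fold in WT and 9.19-fold in KO, and Tlr1 was at 0.492 and 0.462 of its blank level. The R300 response of no receptor was shown to depend on genotype. The 95% interval of this difference for Tlr1 was -1.10 to 0.92, which includes values as large as the Tlr1 response itself.

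Other genes of the pathway were taken from 6 lists that follow the signal from ligand delivery to induced targets. Of 118 genes tested on these lists, 6 rose and 9 fell over both genotypes (12.7%, beside 3.64% of all genes). Their median log2 difference was -0.05. The lists were chosen with earlier results of these data known, so the higher share is not read as a result about the pathway. With WT blank 2 and KO blank 2 left out, 12 rose and 9 fell, and with the near-alike R300 libraries summed 1 rose (Clec7a) and 2 fell (Map3k8 and Atf3). The 3.64% belongs to the main fit, so these counts are not read against it. Fewer of all genes passed with the near-alike libraries summed, as given below. The share of all genes without WT blank 2 and KO blank 2 is not given here. In WT alone Clec7a passed, and in KO alone Clec7a, Map3k8 and Atf3 did. None of the 118 passed between KO and WT or in the difference of responses.

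Among 11 co-receptors and ligand-delivery proteins, 2 rose and none fell. Clec7a, the beta-glucan receptor Dectin-1 that cooperates with Tlr2, rose 2.27-fold (log2 1.18 ± 0.14, edgeR adjusted p = 0.000868). Cd14, which hands lipopolysaccharide to Tlr4 and is a macrophage marker on the list used above, rose 2.82-fold (log2 1.49 ± 0.32, edgeR adjusted p = 0.0261). The Cd14 call did not survive removal of WT blank 1 or 3, WT R300 1 or 3, KO blank 1 or 3, or KO R300 1 or 2 (edgeR adjusted p 0.0556 to 0.0758). The receptors these proteins serve, Tlr2 and Tlr4, did not pass.

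Among 17 tested genes of receptor trafficking and endosomal processing, 1 rose and 2 fell. Slc15a4, a lysosomal histidine and peptide transporter required for Tlr7 and Tlr9 signalling, was at 64.6 to 76.3 CPM in the 6 blank libraries and at 31.9 to 52.0 CPM in the 6 R300 libraries, which did not overlap, and fell to 0.570 of blank (edgeR adjusted p = 0.00918). Its relative Slc15a3 rose 1.64-fold (edgeR adjusted p = 0.0248). Pld4, an endolysosomal nuclease that degrades ligands of Tlr9, fell to 0.726 of blank (edgeR adjusted p = 0.0480). The Slc15a4 call held in all 12 fits with 1 library left out. The Slc15a3 call ended on removal of WT blank 1 or 2, WT R300 1 or 3, KO blank 3, or KO R300 1 or 2 (edgeR adjusted p 0.0553 to 0.0709). The Pld4 call ended on removal of any WT R300 library, WT blank 1 or 2, KO blank 2 or 3, or KO R300 1 or 2 (edgeR adjusted p 0.0613 to 0.136).

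Among 24 adaptors and proximal kinases, 3 fell and none rose. Map3k8, the kinase TPL2 that links the receptors to ERK, fell to 0.557 of blank (edgeR adjusted p = 0.00280). Ikbke, an IRF-directed kinase, fell to 0.644 (edgeR adjusted p = 0.00954), and Peli1, a ubiquitin ligase of the TRIF branch, fell to 0.634 (edgeR adjusted p = 0.00963). Of 14 downstream transcription factors 2 fell, Atf3 to 0.506 of blank (edgeR adjusted p = 0.00358) and Irf1 to 0.441 (edgeR adjusted p = 0.0163). Atf3 is a stress-induced factor that restrains Toll-like receptor responses, and Irf1 drives interferon-type targets.

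Of 23 tested negative regulators 1 rose, Tnip2, a partner of Map3k8 and A20, by 1.19 times (edgeR adjusted p = 0.0250), while Ptpn6, a phosphatase, stood at 0.740 of blank without passing (edgeR adjusted p = 0.0839). Of 29 tested induced targets 2 rose and 2 fell. Cd80 and Cd86, co-stimulatory ligands for T cells, rose 4.49-fold and 1.92-fold (edgeR adjusted p = 0.00611 and 0.00755). Tnf, the inflammatory cytokine, fell to 0.311 of blank (edgeR adjusted p = 0.0178) and Icam1, an adhesion molecule, to 0.438 (edgeR adjusted p = 0.0116). Tnf was at 148, 239 and 157 CPM in WT blank, 67.2, 80.2 and 55.7 in WT R300, 113, 434 and 106 in KO blank, and 53.7, 53.5 and 62.1 in KO R300. The treated and blank libraries did not overlap, and KO blank 2 was the highest of the 12. The log2 difference of Tnf was -1.69 with all libraries and -1.07 without WT blank 2 and KO blank 2 (edgeR adjusted p = 0.00121), and -1.19 without KO blank 2 alone. The Tnf and Irf1 calls ended on removal of WT R300 1 or 3, or KO R300 1 or 2 (edgeR adjusted p 0.0522 to 0.0600). The Tnip2 call ended on removal of the libraries that ended the Cd14 call (edgeR adjusted p 0.0572 to 0.0910). Without the filter on low counts, the Cd14, Tnf, Irf1 and Tnip2 calls also ended.

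**Figure D5:**
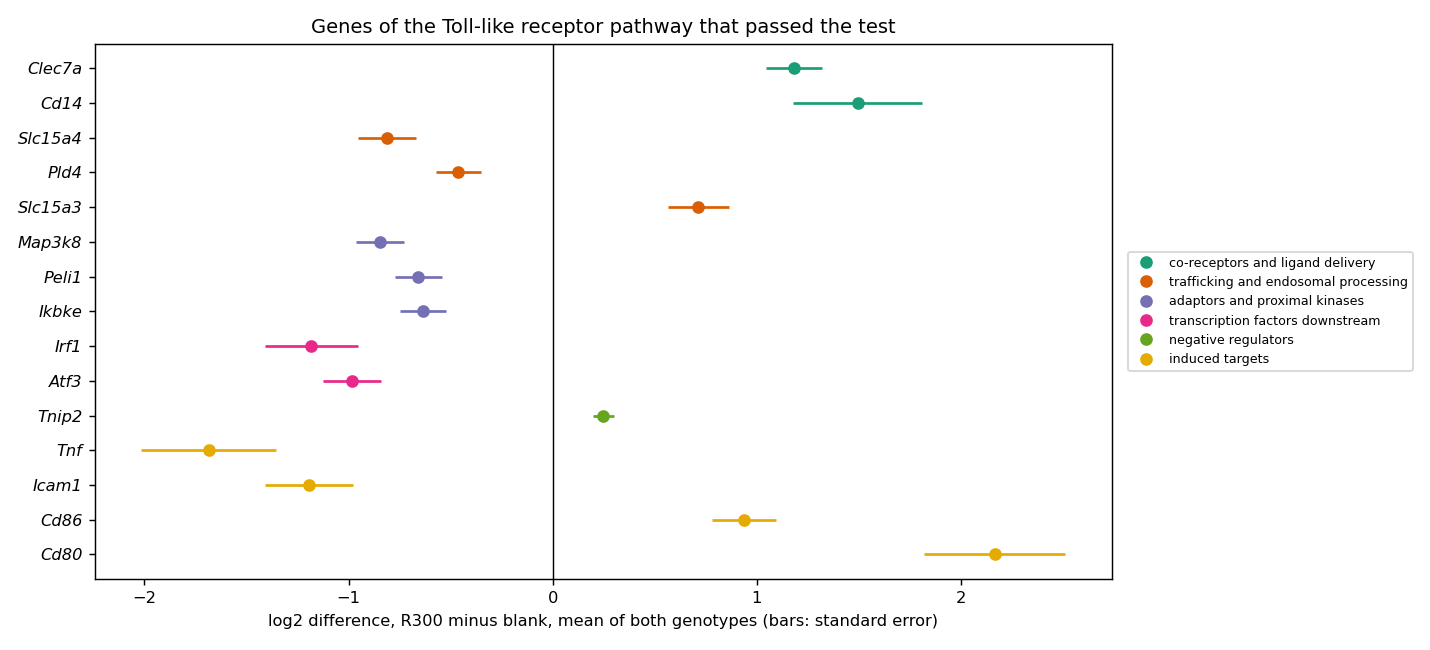
Log2 difference, R300 minus blank over both genotypes, of the 15 pathway genes that passed, with the SE of the fit and coloured by list. Cd80 lies highest, at 4.49-fold, and Tnf lowest, at 0.311-fold.

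Across the 12 libraries, the genes whose log2 CPM followed each receptor most closely were picked among 11504 genes by Pearson's r, as a description that shares treatment, genotype and cell composition. For Tlr5 these were Castor1 (r = 0.989), Blcap (0.987) and Impdh1 (0.986). For Tlr1 they were Acsl1 (0.983), Vav1 (0.974) and Plcl2 (0.972). For Tlr7 they were Pck2 (0.976), Gpr141 (0.968) and Igsf6 (0.964). The other X-linked receptors were followed by Pygb (0.996), Pde8b (0.970) and Catsperg1 (0.962) for Tlr8, and by Tfeb (0.991), Tec (0.983) and Macir (0.981) for Tlr13. Within the family, Tlr1 and Tlr7 varied together (r = 0.944), Tlr3 and Tlr8 did so too (0.912), and Tlr1 ran opposite to Tlr5 (-0.958) over the same 12 libraries.

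RefSeq promoter windows matched 8 of the 10 receptors, in 10 windows of 250 bases, because Tlr1 and Tlr6 have 2 starts each. The NF-kappaB pattern GGNNNTTCC occurred in 4 of the 10 windows and in 15.7% of 32851 mouse windows of the same length. In Tlr5 the match printed above starts 20 bases before the start of transcription. The PU.1 core GAGGAA also occurred in 4 of the 10 windows, against 23.3% of all windows, and in the Tlr1 window it starts 23 bases before the start. The ISRE-type pattern GAAANNGAA occurred in 2 windows (7.13% of all), AP-1 (TGANTCA) in 1 (6.75%), C/EBP (TTGCNNNAA) in 1 (8.29%) and the hypoxia core ACGTG in 1 (16.6%). CRE (TGACGTCA, 1.55% of all), NBRE (AAAGGTCA, 1.34%), RORE (TAGGTCA, 2.23%) and the IRE1-XBP1 type element TGACGTGG (0.563%) had no match in the 10 windows. ACGTG is contained in TGACGTGG. A match describes letters in the window and shows no binding.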

How the data were processed

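Poly(A) RNA of 12 macrophage libraries was sequenced. The submitters' processing notes name mm10, the aligner HISAT2 (release 2), the counter featureCounts 2.0.3, the read tools fastp 0.23.4 and FastQC 0.12.1, and DESeq2 1.42.0. The authors deposited raw counts per gene symbol for each library, 35050 rows, of which 102 without a symbol (0.0232% to 0.0328% of counts) were left out. Strand and multi-mapped reads in counting are not given in the sources used here; the library kit named in the labels does not mark strand.

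Here counts were tested with edgeR 4.0.16 in R 4.3.3 (TMM, filterByExpr, robust quasi-likelihood fit of 12 libraries and 4 group means, 8 residual degrees of freedom, 7 contrasts). Benjamini-Hochberg adjusted p under 0.05 over 16546 genes was called. The biological coefficient of variation (common) came to 0.267. The fit was run on simulated counts of independent libraries with a smaller spread than these data. The simulation held no near-alike pairs and no split by Xist, so it does not cover those features. Values are CPM on TMM effective library sizes, per kb of GENCODE exon bases where levels of genes are compared. Libraries with Xist under 10 CPM were treated as without Xist. DESeq2 1.42.0, other scalings, no filter, composition terms and left-out libraries were alternatives. Likeness used log2(CPM + 0.5) over genes with mean CPM of at least 1.

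All 10 receptors were tested in every comparison, and each is named for R300 against blank over both genotypes. Other comparisons name only some of them. Pathway genes are named where a comparison called them or, in each list, where they had the 2 lowest p-values. The receptors and lists were chosen with earlier results of these data known.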

Additional observations from a re-analysis of the deposited data

How the results depend on the processing

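Treatment, both genotypes (603 genes and 3 receptors called): DESeq2 called 1222 genes, no filter kept 1 receptor, and a term for libraries without Xist gave 1492 genes and 5 receptors. Only libraries with Xist gave 1004 genes, the share of XX cells as a covariate 1368, near-alike libraries summed 158 and 1 receptor. Without WT blank 2 and KO blank 2, 1 receptor was called, and with the Xist term added 2539 genes and 7 receptors. Leaving out 1 library gave 308 to 852 genes and 1 to 3 receptors.

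Treatment in WT (103 and 1): DESeq2 355, only the groups compared 41 and 0 receptors, Xist term 347, only libraries with Xist 242 and 2 receptors, XX share 307, near-alike summed 27 and 0 receptors, without both blank 2 libraries 0 receptors, with the term added 775 and 2 receptors; 1 library out, 32 to 135 and 0 to 1. Treatment in KO (138 and 1): DESeq2 438 and 3 receptors, library totals 0 receptors, only the groups compared 43, Xist term 450, only libraries with Xist 290 and 3 receptors, XX share 346, near-alike summed 35 and 0 receptors, without both blank 2 libraries 0 receptors, with the term added 1051 and 2 receptors; 1 library out, 45 to 171 and 0 to 2.

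KO against WT in blank (0 genes): DESeq2 4, no filter 1, Xist term 1, XX share 1, and 74 without both blank 2 libraries with the term. In R300 (0): DESeq2 14, no filter 1, without both blank 2 libraries 1, with the term 185. Averaged (1): DESeq2 50, Xist term 28, only libraries with Xist 0, XX share 5, near-alike summed 0, without both blank 2 libraries 19, with the term 463; 1 library out, 1 to 10. No receptor was called in any of these, nor in the difference of responses.

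Among the differences recomputed under each alternative, signs reversed for uncalled ones only. KO minus WT with the XX share became 0.0313 for Tlr1, -0.23 for Tlr2, 0.0784 for Tlr3, -0.16 for Tlr4, -0.0284 for Tlr5, 0.0283 for Tlr6, 0.0428 for Tlr7, 0.0310 for Tlr8, 0.0396 for Tlr9 and 0.11 for Tlr13, and with only Xist libraries 0.11 for Tlr6 and 0.0410 for Tlr7. With 1 library out it ran from -0.36 to 0.0493 for Tlr1, -0.0728 to 0.0858 for Tlr6, -0.15 to 0.10 for Tlr7, -0.28 to 0.11 for Tlr9 and -0.28 to 0.0181 for Tlr13. The R300 difference ran from -0.37 to 0.0089 for Tlr3 and from -0.16 to 0.0024 for Tlr6 with 1 library out, and Tlr6 was 0.0024 without both blank 2 libraries with the term. The Tlr1 difference of responses ran from -0.56 to 0.28 with 1 library out and was 0.10 without both blank 2 libraries, with or without the term. The causes were not tested. Of these recomputed log2 differences (both averages, the R300 responses of Tlr1, Tlr5, Tlr7, Tlr9 and Tlr13 within genotypes, and the difference of responses of Tlr1, Tlr5 and Tlr7), 977 kept direction and side of the threshold, 105 lost a call, 22 gained one and 33 changed sign. Within a genotype, uncalled R300 differences of other receptors also crossed 0, such as Tlr2 in WT (-0.12 to 0.50) and Tlr3 in KO (-0.46 to 0.19).

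Replicate numbers did not pair the libraries across all groups. In deviations from group means, 9 of 18 same-number pairs correlated above 0.1 (r -0.72 to 0.67). For 0 of 12 libraries was the own number the best partner in every other group. Between WT blank and KO blank, however, same-number pairs correlated at 0.587, 0.608 and 0.654, and all different-number pairs were negative. With the number as a block, 667 genes and 3 receptors were called over both genotypes, 119 and 1 in WT, 141 and 1 in KO, and 1 gene and 0 receptors between genotypes on average. Depth limits Tlr5 most, at 6 to 28 counts per blank library.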
